A study of Mus musculus with 18 samples.

Results

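Heat shock and chaperone genes were followed here as a set of 10 named genes, Hspa8, Hspa1a, Hspa1b, Hsp90aa1, Hsp90ab1, Hsph1, Dnajb1, Hspd1, Hspe1 and Hsf1, chosen by symbol. All 10 were found among 21859 genes measured by TT-seq, which labels RNA with 4-thiouridine (4sU) for 5 min and so reads transcription in progress. Promoter upstream transcripts (PROMPTs), short RNAs that run from a promoter away from its gene, were listed for 7 of the 10 among 32253 PROMPTs. The cells were E14 mouse embryonic stem (ES) cells, an established line, carrying the plant auxin receptor osTIR1 in their genome, and they were either left untagged or carried an auxin-inducible degron and V5 tag on the FACT subunit SPT16 (2 clones, each a single isolate). Each of the 3 lines was treated for 24 h with 3-IAA, which leads to loss of tagged SPT16, or with ethanol as vehicle, giving 6 groups of 3 libraries and 18 libraries in all.

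The values used here are the deposited baseMean, a single number for each gene or PROMPT that averages all libraries in its table, treated and untreated alike. It was therefore not possible to give a value for one library, one clone or one treatment, or an error between replicates, and no comparison between 3-IAA and ethanol was made. The levels below describe where these genes stood in the pooled ES cell data, with no test. The order of 2 genes with close levels cannot be judged against a replicate spread.

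Heat shock proteins bind unfolded protein chains and help them fold, hold or refold. HSP70 proteins work in cycles of ATP hydrolysis that J proteins start and HSP110 proteins reset by nucleotide exchange, HSP90 acts later on clients such as kinases and receptors, and HSP60 with its lid HSP10 encloses proteins in the mitochondrion. On heat or other stress the transcription factor HSF1 binds heat shock elements, inverted repeats of a short unit, and drives transcription of the inducible members, while several members of each family are made at all times.

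The promoters are shown first, because the 2 stress-inducible HSP70 genes are near copies of each other. Promoter windows of 300 bases (250 before and 50 after a RefSeq start, GRCm38.p6) were matched by symbol for 6 of the 10 genes, Hspa1a, Hspa1b, Hspd1, Hspe1, Hsph1 and Dnajb1, in 9 windows. Hspa8, Hsp90aa1, Hsp90ab1 and Hsf1 had no entry. The 250 bases upstream of Hspa1a and Hspa1b are given below, 5′ to 3′. Capitals mark an exact match to 2 inverted units of a heat shock element, and units with a mismatch are not marked.
Hspa1a, chr17:34972157-34972406, minus strand: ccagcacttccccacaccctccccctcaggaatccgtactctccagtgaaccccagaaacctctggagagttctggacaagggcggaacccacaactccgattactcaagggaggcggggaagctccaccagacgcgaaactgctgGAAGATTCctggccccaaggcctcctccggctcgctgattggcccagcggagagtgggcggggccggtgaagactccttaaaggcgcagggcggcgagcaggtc
Hspa1b, chr17:34959239-34959488, minus strand: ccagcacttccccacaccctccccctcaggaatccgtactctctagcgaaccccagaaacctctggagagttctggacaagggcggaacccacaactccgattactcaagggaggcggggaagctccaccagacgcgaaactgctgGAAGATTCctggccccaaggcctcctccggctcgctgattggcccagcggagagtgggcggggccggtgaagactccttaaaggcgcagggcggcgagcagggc
Of these 250 bases 247 were the same, or 98.8%. Counted from 1 at the 5′ end of the printed stretch, with the Hspa1a base first, the 3 differences were C44T, T47C and T249G, and none of them lay in the marked match. In both genes the match, GAAGATTC, began 104 bases before the start.

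The mitochondrial pair Hspd1 and Hspe1 is arranged head to head and shares 1 stretch of promoter. The 30 bases that hold its element are shown, and only 30, because annotated exons reach into the window.
Hspe1, chr1:55088058-55088087, plus strand: gTTCTAGAACCTTCCGGAAggccccgcgcg
In it 3 inverted pairs overlap, and together they form the 2 overlapping matches to 3 alternating units, TTCTAGAACCTTC and GAACCTTCCGGAA in the direction of Hspe1. The run began 89 bases before the RefSeq start of Hspe1. The same bases, read on the other strand, began 144 bases before the inner of 2 RefSeq starts of Hspd1, so this is 1 site counted for both genes.

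Hsph1, the HSP110 nucleotide exchange factor, had 3 matches in each of its 2 windows. The first lay 54 or 33 bases before the start, depending on the start used, and is shown in capitals within 30 bases.
Hsph1, chr5:149636351-149636380, minus strand: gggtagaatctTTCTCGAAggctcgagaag
The other matches overlapped each other and lay after the start, at 16 and 21 bases for one start and at 37 and 42 bases for the other, and together they formed the 13-base run TTCTGGAAAGTTC of 3 alternating units.

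The motif searched was GAANNTTC or TTCNNGAA, 2 inverted units, each its own reverse complement, so that both strands were covered. It was found for 5 of the 6 genes with a window, against 17.0% of the 27025 genes with a window and 15.1% of all 32851 windows. Dnajb1, which encodes a J protein that partners HSP70, had no exact match in either window. A run of 3 alternating units (GAANNTTCNNGAA or TTCNNGAANNTTC) was found for 3 of the 6, Hspd1, Hspe1 and Hsph1, against 0.662% of genes and 0.603% of windows. Since Hspd1 and Hspe1 share bases and Hspa1a and Hspa1b are near copies, the 5 genes stand for fewer separate sequences. A match is a description of the letters, and binding of HSF1 was not measured here.

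**Figure D1:**
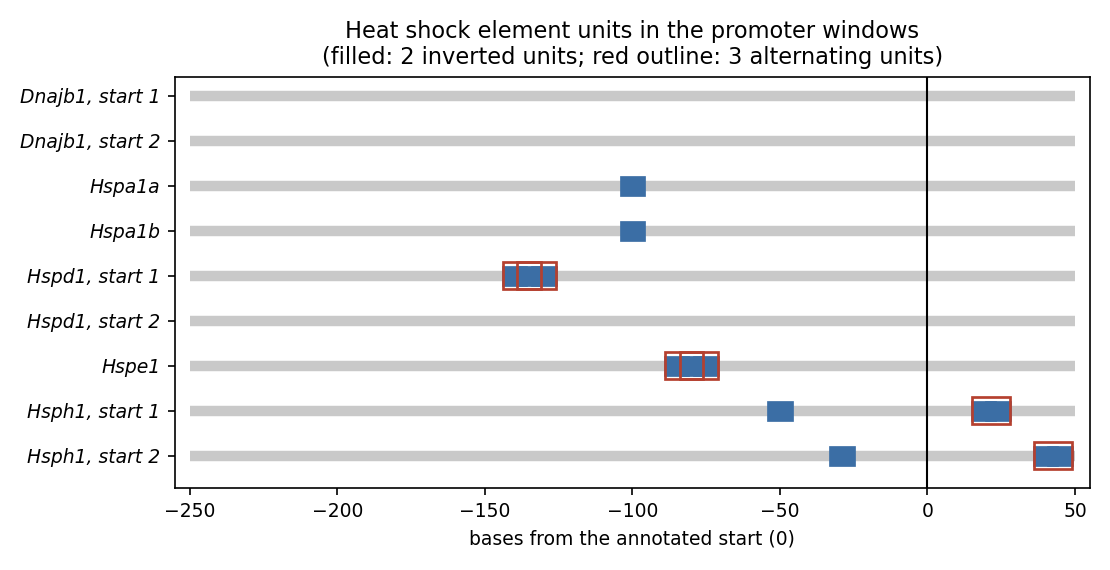
Positions of heat shock element units in the 9 promoter windows of 6 members; the x axis is the distance in bases from the annotated start, filled blocks are 2 inverted units and red outlines 3 alternating units, and start 1 has the lower genome coordinate. Hspa1a and Hspa1b each hold 1 match at the same distance, the matches of Hspd1 start 1 and Hspe1 are the same bases, and Dnajb1 holds none.

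Levels were set against each other per kb of annotated exon, since baseMean itself is not scaled for length. On this scale the 10 genes ran from 21.9 to 13547 with a median of 1611, against a median of 120 over the 20140 genes with a value above 0 and an annotated length. Of the 10, 8 lay above that median gene, and the other two, Hspa1b and Hspa1a, lay below it. Unscaled, a count of 8 also lay above the median baseMean of 421. Per kb of gene span, introns included, all 10 lay above the median gene of 21.7, with Hspa1b at 41.6 and Hspa1a at 21.9. Whether reads in introns were counted is not given in the sources used here, so on which side of the median gene these 2 genes lay was not settled.

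The cytosolic HSP90 genes led the set. Hsp90ab1, the constitutive HSP90 beta isoform (chr17:45567775-45573271, minus strand), had a baseMean of 40629, or 13547 per kb of exon, and 99.9% of genes were lower per kb. Hsp90aa1, the alpha isoform that is more responsive to stress (chr12:110690605-110702728, minus strand), had a baseMean of 30419, or 7738 per kb, above 99.6% of genes. The beta isoform was 1.75 times the alpha isoform per kb of exon, 1.34 times before scaling for length and 2.95 times per kb of gene span. Per kb of exon sequence without a second copy in the genome, described below, the beta isoform was 0.836 times the alpha isoform. Any intron reads would be part of baseMean but not of that length, so which isoform was higher was not settled.

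The HSP70 genes were split. Hspa8, the constitutive cytosolic HSC70 (chr9:40800984-40810087, plus strand), had a baseMean of 16817, or 3910 per kb of exon, above 98.3% of genes. Its span also holds Snord14c, Snord14d and Snord14e, small nucleolar RNAs on the same strand. The inducible genes, both without introns and both on the minus strand of the same chromosome, were far lower: Hspa1b (chr17:34956436-34959238) had a baseMean of 117, or 41.6 per kb, and Hspa1a (chr17:34969190-34972156) had a baseMean of 64.8, or 21.9 per kb. Per kb of exon the level of Hspa8 was 93.9 times that of Hspa1b and 179 times that of Hspa1a, and per kb of gene span it was 44.4 and 84.5 times. Per kb, 40.3% of genes lay below Hspa1b and 35.4% below Hspa1a, and neither was near 0.

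How many reads stood behind the low values can be bounded. The lowest recurring baseMean values, each the worth of 1 read pair in 1 library, numbered 18 in the gene table, as many as there were libraries, and ran from 0.0216 to 0.115. By these steps the baseMean of Hspa1b rested on 1012 to 5407 read pairs over all libraries and that of Hspa1a on 562 to 3004.

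The cochaperones of HSP70 lay between these groups. Hsph1 (chr5:149614287-149636376, minus strand) had a baseMean of 7947, or 1094 per kb of exon, above 84.8% of genes. Dnajb1 (chr8:83608193-83612653, plus strand) had a baseMean of 2930, or 915 per kb, above 81.7% of genes. The divergent neighbour Tecr, an enzyme of fatty acid elongation whose start lies 222 bases upstream of Dnajb1, had a baseMean of 5589.

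Hspd1 encodes HSP60 and Hspe1 encodes HSP10, which work together in the same mitochondrial chamber. Hspd1 (chr1:55077835-55088243, minus strand) had a baseMean of 11129, or 4212 per kb of exon, and Hspe1 (chr1:55088132-55091307, plus strand) had a baseMean of 3138, or 2129 per kb. In Gencode the outermost ends of the pair overlap by 112 bases on opposite strands. The ratio of Hspd1 to Hspe1 was 3.55 in baseMean, 1.98 per kb of exon and 1.08 per kb of gene span. Which of these scales fits depends on whether introns were counted.

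Hsf1, the master regulator of the heat shock response (chr15:76477422-76501913, plus strand), had a baseMean of 3414, or 481 per kb of exon, above 69.7% of genes. Bop1, a ribosome biogenesis factor that starts 145 bases upstream on the other strand, had a baseMean of 3200. Of the 8 members above the median gene per kb of exon, Hsf1 was the lowest per kb of exon.

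**Figure D2:**
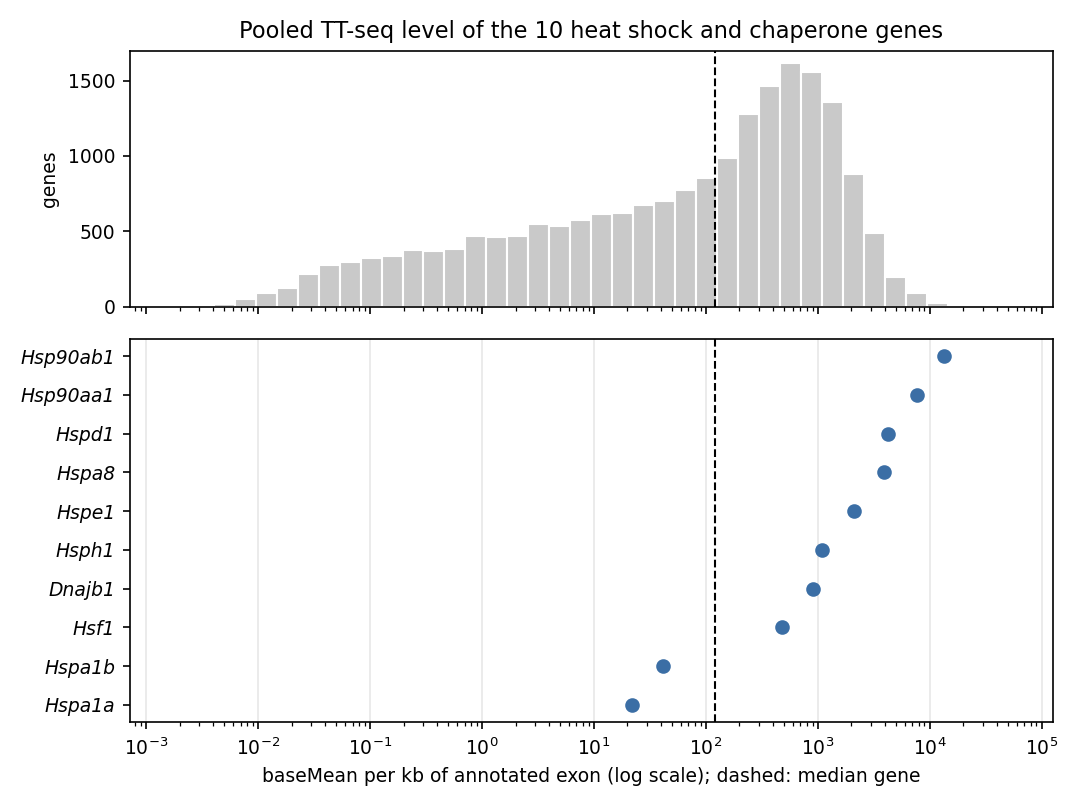
Top, number of genes by baseMean per kb of annotated exon (x axis, log scale); bottom, the 10 members on the same axis, 1 point each, with no error since a single pooled value exists. The dashed line is the median gene at 120; 8 members lie to its right, up to Hsp90ab1 at 13547, and Hspa1b and Hspa1a lie to its left at 41.6 and 21.9.

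The near copies among these genes bear on their counts, because the authors kept only reads with 1 alignment in the genome. The exons of each member were therefore cut into all words of 50 bases and each word was looked up in the genome on both strands. Every word of Hsph1 and Hsf1 occurred once, as did 99.4% of the words of Dnajb1, 92.8% of Hsp90ab1 and 83.0% of Hspe1. The share was 63.6% for Hspa8, 49.1% for Hspd1 and 43.8% for Hsp90aa1, and it was lowest for Hspa1a at 39.7% and Hspa1b at 37.7%. This order held for the union of all annotated exons. Over the exons of the transcript with the longest coding sequence alone the lowest shares were those of Hsp90aa1 at 18.4% and Hspa8 at 23.2%, while Hspa1a and Hspa1b, with a single transcript each, kept theirs.

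The second copies were named genes in several cases. All 1716 repeated words of Hspa1b were also found in Hspa1a, and of the 1761 repeated words of Hspa1a, 1716 were in Hspa1b and 232 in Hspa1l, the adjacent HSP70 gene whose start lies 547 bases from that of Hspa1a. For Hspd1, 698 of 1046 repeated words lay in the processed pseudogene Hspd1-ps3. For Hspa8, 1438 of 1513 lay within the long non-coding RNA gene Gm26825 and 1392 in the processed pseudogene Gm15459. For Hsp90aa1, 1676 of 1906 lay within the protein-coding gene Ssh2 and 1233 in the transcribed processed pseudogene Gm12346. These are positions within gene spans, introns included, and a word can count for more than 1 gene. Read pairs that lie wholly in such words could not be counted for either copy, so the baseMean of these genes can understate their transcription. The amount depends on the read length and on the mate, which were not known here.

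With words of 150 bases the shares rose to 60.3% for Hspa1a, 59.5% for Hspa1b, 68.6% for Hsp90aa1, 83.0% for Hspa8 and 94.4% for Hspd1. Words did not cross exon ends, so exons shorter than the word dropped out. Hspd1 had 2054 words at 50 bases and 1077 at 150, and Hsp90aa1 had 3392 and 2350. The shares at each length are therefore over different sets of words. Per kb of exon words found once, in place of per kb of exon, Hspa1b stood at 112 and Hspa1a at 56.0, and Hspa8 at 6368. On that scale Hspa8 was 56.6 times Hspa1b and 114 times Hspa1a. With the same baseMean divided by the words found once in the longest coding transcript alone, Hspa8 was 329 and 661 times as high. There only the divisor changed, and reads from exons outside that transcript stayed in baseMean. The size of the gap between the constitutive and the inducible genes thus depended on the divisor, while Hspa8 was the higher on each of these scales. For the HSP90 genes the union of exons gave 17114 for Hsp90ab1 against 20470 for Hsp90aa1. With the same baseMean over the words found once in the longest coding transcript, the ratio of beta to alpha was 0.318. Any intron reads of Hspa8 or the HSP90 genes would be part of baseMean but not of these divisors. Hspa1b stood 1.91 times above Hspa1a per kb of exon and 2.01 times on the scale of words found once.

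**Figure D3:**
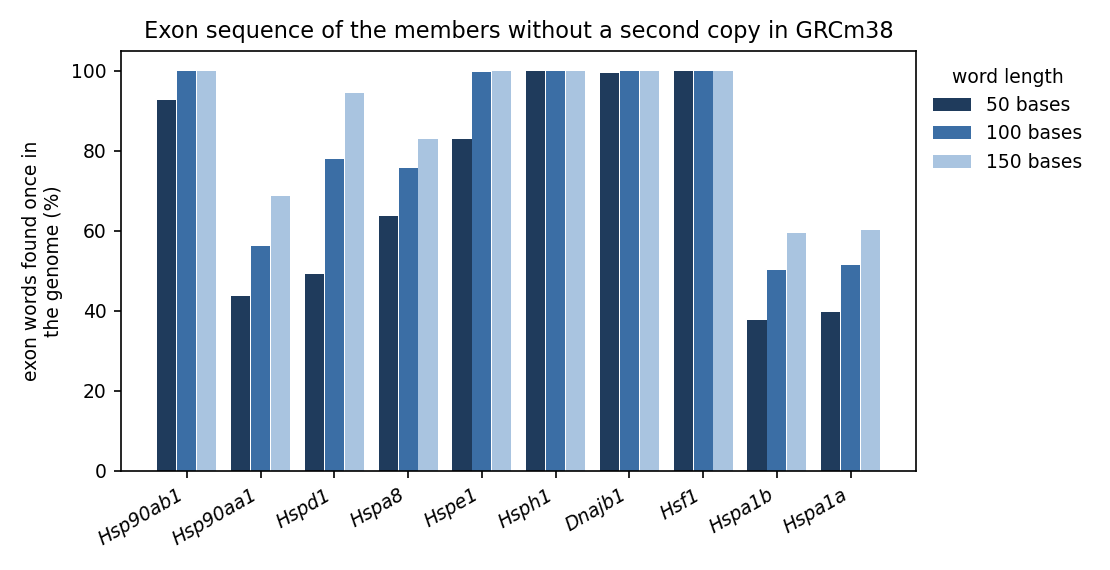
Percent of exon words of each member that occur once in GRCm38 (y axis), for words of 50, 100 and 150 bases (bars from dark to light), with members ordered by baseMean per kb of exon. Hsph1 and Hsf1 stay at 100 for all lengths, while Hspa1a and Hspa1b lie between 37.7 and 60.3.

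PROMPTs of 7 members were measured, each in a window within 1 kb upstream of a start and on the opposite strand. The highest were those of Hsph1 with a baseMean of 18.3, Hspa1b with 18 and Hsp90ab1 with 16.5. Those of Hsp90aa1 (6.72), Dnajb1 (6.62), Hspa8 (4.32) and Hspd1 (2.62) followed. All 7 lay above the median of 0.815 over the 23257 PROMPTs above 0, with 67.2% of PROMPTs below that of Hspd1 and 89.7% below that of Hsph1. By the lowest recurring values of the PROMPT table, 18 steps from 0.0266 to 0.129, the PROMPT of Hspd1 rested on 20 to 99 read pairs over all libraries and that of Hsph1 on 141 to 685.

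The median PROMPT was 3.15 over the 6591 whose gene had a baseMean of 1000 or more, above that of all PROMPTs, so each was also set beside PROMPTs of genes whose baseMean lay within 2-fold of its own. Among these, 44.3% were below the PROMPT of Hspd1, 50.8% below that of Hspa8, 52.8% below Hsp90aa1, 64.4% below Dnajb1, 65.2% below Hsp90ab1 and 79.7% below Hsph1. The PROMPTs of Hspd1, Hspa8 and Hsp90aa1 were thus close to the middle for genes of their level. For Hspd1 and Dnajb1 the window behind the value is not known, as described below. The PROMPT of Hspa1b stood above 92.4% of the 1426 in its range, whose median was 0.866.

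The PROMPT of Hspa1b was also large beside its own gene. It came to 15.4% of the gene baseMean, while the other 6 ran from 0.0221% (Hsp90aa1) to 0.230% (Hsph1), and the median over 13712 genes with both values above 0 was 0.340%. Of these genes 87.6% had a lower percentage than Hspa1b. The other 6 are genes of much higher level, and over genes with a baseMean of 1000 or more the median percentage was 0.0794%. Both tables carry their own size factors, which differ, so these percentages are across separately normalised tables and describe order of size only. The gene value of Hspa1b can also lack reads from its copied exon words. Of its exon words 37.7% occurred once, against 84.0% of the words in the kilobase upstream of it. A larger part of the gene than of the window could thus go uncounted. The part of this in the percentage was not tested.

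Hspa1a, Hspe1 and Hsf1 had no PROMPT row. Each has a protein-coding gene that starts within 1 kb on the other strand: Hspa1l with a baseMean of 10.6, Hspd1 and Bop1. The authors' description of the data says that PROMPTs within 1 kb of other protein-coding transcripts were left out. Dnajb1 and Hspd1 had a row although Tecr and Hspe1 start as near. The kilobase upstream of the outermost Hspd1 start lies within Hspe1 on the Hspe1 strand, yet the PROMPT stood at 2.62 and Hspe1 at 3138. Most of the kilobase upstream of Dnajb1 lies within Tecr on the Tecr strand, yet the PROMPT stood at 6.62 and Tecr at 5589. Which starts and windows the authors used for these genes is not given in the sources used here.

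**Figure D4:**
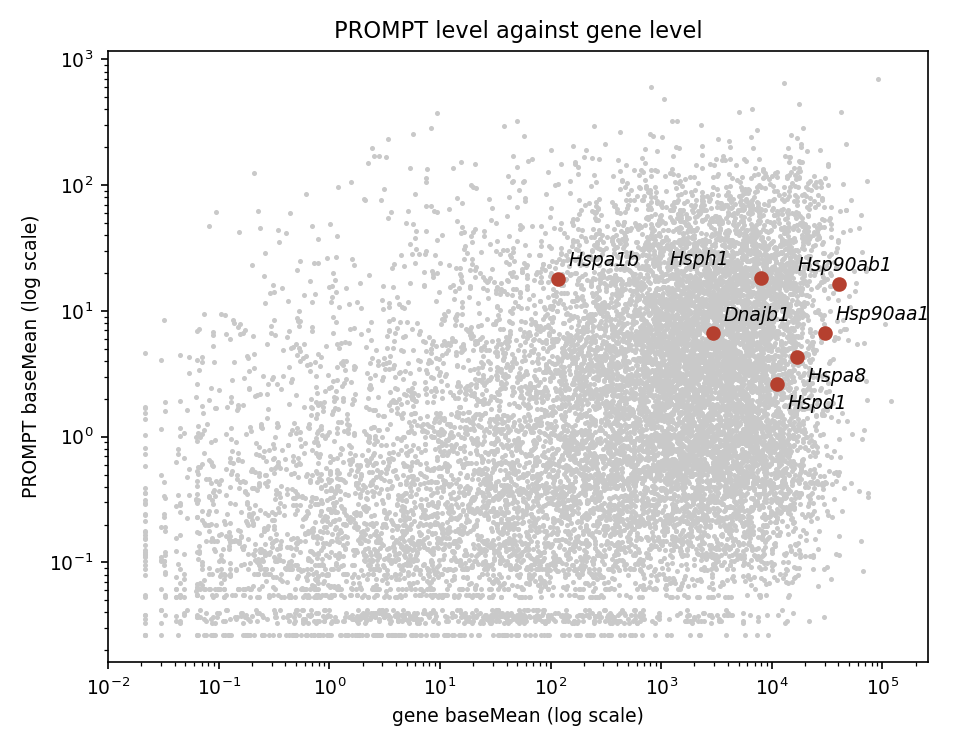
PROMPT baseMean (y axis, log scale) against gene baseMean (x axis, log scale) for the 13712 genes with both above 0 (grey) and the 7 members with a PROMPT (red). Hspa1b lies at a PROMPT of 18 and a gene value of 117, to the left of the other 6, whose gene values run from 2930 to 40629.

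The wider chaperone network was described by 85 other genes listed by role, all of which were in the table and above 0. Of these, 72 lay above the median gene per kb of exon, with a median of 749 per kb against 120 over all genes. Every one of the 15 subunits of the cytosolic chaperonin TRiC and of prefoldin, which fold actin and tubulin, lay above it, with a median of 1714 and a range per kb from Cct6b at 332 to Pfdn1 at 9049. In baseMean the lowest of them was Pfdn6 at 610 and the highest Cct3 at 12467. Above the median gene per kb were also all 5 HSP70 and HSP90 genes of the endoplasmic reticulum and mitochondrion, with a median of 3229, from Hyou1 at 3253 (450 per kb) to Hspa9 at 16564 (3843 per kb), the mitochondrial HSP70. All 6 mitochondrial partners also lay above it, with a median of 1147 and a range per kb from Grpel2 at 583 to Clpb at 1562, and in baseMean from Clpp at 1676 to Clpb at 15562.

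Genes that work directly with HSP70 and HSP90 were also mostly high. All 22 cochaperones lay above the median gene per kb, with a median of 777 and a range per kb from Bag2 at 130 to Ptges3, the HSP90 cochaperone p23, at 5029. In baseMean Bag2 was the lowest at 398 and Fkbp5 the highest at 16004. Of 14 J proteins 13 did, with a median of 886 per kb, and Dnajb6 was the highest in baseMean at 31272 (5159 per kb) while Dnaja4 stood at 155 (43.1 per kb). The other HSP70 and HSP110 genes were divided like the members themselves, with 5 of 8 above and a median of 174 per kb, from Hspa1l at 10.6 (4.29 per kb) to Hspa4, another HSP110, at 30570 (5530 per kb).

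The small heat shock proteins and the other heat shock factors were lower per kb of exon. Levels per kb of gene span, the scale on which Hspa1b and Hspa1a lay above the median gene, were not taken for the listed genes. Of 9 small heat shock protein genes 3 lay above the median gene per kb, with a median of 52.3, from the lens crystallin Cryaa at a baseMean of 1.35 (0.648 per kb) to Hspb8 at 7353 (3771 per kb). Of the 6 other heat shock factors and the factor binding protein 3 did, with a median of 82.4, and the highest per kb was Hsbp1, the binding protein, at 670. Hsf2 had a baseMean of 3833 (399 per kb), beside 3414 (481 per kb) for Hsf1, and Hsfy2, a testis-linked factor, was at 0.0317 (0.0228 per kb). Of the 71 listed genes with a promoter window, 18 or 25.4% held the motif of 2 inverted units, against 17.0% of all genes with a window. In the 250 bases before the start alone the share was 18.3%, against 14.5% of all genes. A run of 3 alternating units was held by 2, Chordc1 and Dnajb6, or 2.82%, against 0.662% of all genes.

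**Figure D5:**
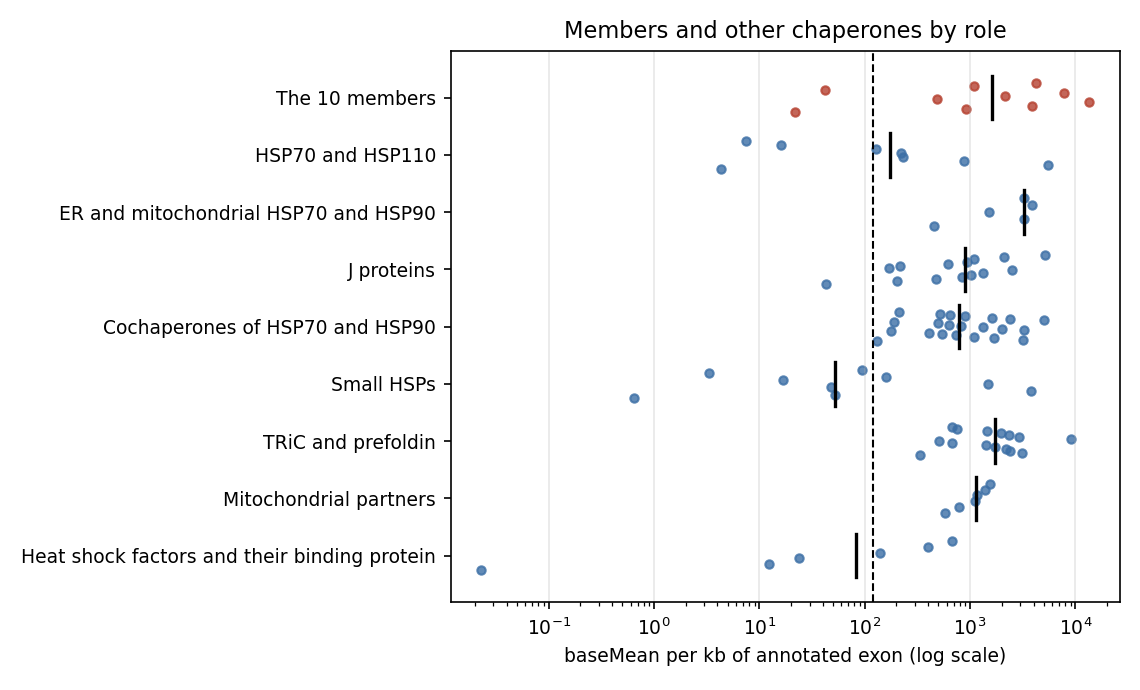
BaseMean per kb of annotated exon (x axis, log scale) of the 10 members (red) and of 85 other chaperone genes by role (blue), 1 point per gene; vertical spread within a row has no meaning, black bars are medians and the dashed line is the median gene at 120. Small heat shock proteins (median 52.3) and the other heat shock factors (82.4) are the 2 rows with a median below that line.

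The label of the cells was checked with markers. Of 9 ES cell markers 8 had a baseMean above the median gene, the lowest being Utf1 at 248, and the summed baseMean was 201687. None of 6 markers of liver, muscle, astrocytes and T cells lay above it, the highest being Cd3e at 56.1, with a sum of 112. The FACT subunits Supt16, which encodes SPT16, and Ssrp1 had a baseMean of 12729 and 3537. The degron acts on protein, so these RNA values do not check the depletion.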

How the data were processed

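TT-seq was carried out on 18 libraries of E14 ES cells. The authors used Trim Galore on the paired reads and then STAR on mm10, keeping reads with 1 alignment; featureCounts gave counts by strand per the methods, while the labels' tool list names HTSeq. The authors scaled the counts with DESeq2 and applied no expression filter. Tool versions are not given in the sources used here. The values used are a signal, baseMean, which the authors deposited as the mean over libraries of counts divided by size factors, in 1 table each for genes and PROMPTs. The tables also hold columns of the authors' own comparison (shrunken log2 fold change, its standard error, p and adjusted p), which were not used; tables of other non-coding transcripts name no gene and were not used.

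Ranks were taken among features above 0. Exon and gene lengths came from Gencode vM21 on GRCm38 for 21817 of 21859 genes, while the authors used vM25. Exon words were looked up in 66 sequences of GRCm38 without patches. Promoter windows were RefSeq's. The worth of 1 read pair was sought among values up to 0.2 that recurred at least 0.06 times as often as the most frequent one. Named genes were all members, the highest and lowest of each role list by baseMean, marker extremes and opposite-strand genes starting within 1 kb. Named after the search were genes at the ends of a list per kb of exon, the genes with 3 alternating units, and the genes and pseudogenes that hold second copies. Members and lists were chosen with earlier results of these data known. Functions were tested on simulated data. The software was matplotlib 3.10.9, scipy 1.17.1, pandas 2.3.3 and numpy 2.4.6 under Python 3.11.15. Depth per library was not used here beyond these steps.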

Additional observations from a re-analysis of the deposited data

How the results depend on the processing

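Apart from columns of the authors' own comparison, which were not used, the tables hold 1 pooled value for each feature, so no replicate was left out and no groups were compared. No paired analysis was possible because the values of the libraries that share a replicate number were already averaged. The members above the median gene numbered 8 among genes at 1 or more, at 10 or more and per kb of exon. Per kb of gene span they numbered 10. The other chaperones above it numbered 70 without length scaling. Their count was 65 among genes at 1 or more, 60 at 10 or more and 72 per kb of exon. It was not taken per kb of gene span.

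The median position of the 10 members, 83.5% of genes lower in baseMean, was 81.1% among genes at 1 or more, 84.8% with genes at 0 included, 89.5% per kb of exon and 98.5% per kb of span. The median position of the 7 PROMPTs, 79.6%, was 56.3% among PROMPTs at 1 or more, 74.5% among those named for a listed gene and 63.6% among those of genes at 1000 or more, the last chosen, like the ranks within 2-fold of a gene's level and the scale of words found once, after seeing the data. The median PROMPT to gene percentage was 0.0406% in baseMean and 0.122% with both per kb. The ratio of Hsp90ab1 to Hsp90aa1, 1.75 per kb of exon, was 0.836 per kb of words found once and 0.318 with only those of the longest coding transcript as divisor. Both scales, also chosen after seeing the data, left any intron reads in baseMean, so the order was not settled. The motif of 2 inverted units was found for 5 of 6 members, for 5 in the 250 bases before the start and for 6 with 1 mismatch, which 88.5% of all genes also met. A run of 3 alternating units was found for 3 members. The median share of exon words found once was 73.3% at 50 bases, 88.9% at 100 and 97.2% at 150, where longer words left out short exons. At 50 bases it was 52.7% over the exons of the transcript with the longest coding sequence. Values near the lowest steps rest on few reads, and counting error could not be given for a pooled mean.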
